A study of Mus musculus with 31 samples.

Results

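The transcripts that still separated D10.G4.1 cells given neuromedin U (NmU) from cells given PBS after 12 h are described here. D10.G4.1 is known as a single mouse T helper 2 (Th2) clone, and NmU is a neuropeptide whose receptor, Nmur1, this array also carries. The study measured total RNA at 0.8, 3, 6 and 12 h on 31 one-colour arrays in 8 groups. The 12 h comparison rests on 4 arrays of NmU-treated cells and 4 arrays of PBS-treated cells, all taken at that time, with no other treatment named in the labels. The labels give no dose, and they do not say whether replicates were separate cultures. P-values and SEs therefore measure the spread between arrays, which may be technical. That spread was pooled within the 8 groups of all 31 arrays, and not taken from the 8 arrays at 12 h alone.

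Probe sets were chosen for testing by their signal in either group, so a dim transcript could pass through the group where it was higher. The gene lists used below were drawn up with earlier results of these data known. Their counts, set against all genes, are therefore descriptive and not independent evidence. Of 12422 probe sets (oligonucleotide sets that each report a transcript) other than array controls, 7587 had a group mean above 20.2 intensity units in NmU-treated or PBS-treated cells at 12 h and were tested. They stood for 5685 named genes. Values below 5.8 units were set to 5.8 before log2 was taken, and limma, a linear model fitted to all 31 arrays, gave p-values that were adjusted for multiple testing. Calls were made under 0.05. Fold changes are ratios of geometric means.

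Th2 cells help antibody and allergic responses by secreting a small set of cytokines, chiefly IL-4, IL-5 and IL-13, whose genes lie close together on mouse chromosome 11. IL-4 acts on B cells, IL-5 on eosinophils and IL-13 on epithelium and smooth muscle. In T cells these genes are switched on through calcium and NFAT together with AP-1, and their transcripts are short-lived.

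The starts of 3 raised Th2 cytokine genes, of the raised chemokine gene with the largest change and of the lowered gene with the smallest p are shown. They are given for reference, and a link between these sequences and the changes was not tested. Each window runs from 250 bases before to 50 bases after the gene's start, is read 5′ to 3′ on the gene's strand, and comes from RefSeq on build GRCm38.p6. Capitals mark GGAAA, the core of the NFAT motif, or its reverse complement. For Il4, which has 2 starts in that table, the more upstream one is given. Il5 is at chr11:53720544-53720843 on the + strand, Il4 at chr11:53618616-53618915 on the - strand, Il13 at chr11:53634653-53634952 on the - strand, Ccl3 at chr11:83649329-83649628 on the - strand and S100a13 at chr3:90514185-90514484 on the + strand.
Il5: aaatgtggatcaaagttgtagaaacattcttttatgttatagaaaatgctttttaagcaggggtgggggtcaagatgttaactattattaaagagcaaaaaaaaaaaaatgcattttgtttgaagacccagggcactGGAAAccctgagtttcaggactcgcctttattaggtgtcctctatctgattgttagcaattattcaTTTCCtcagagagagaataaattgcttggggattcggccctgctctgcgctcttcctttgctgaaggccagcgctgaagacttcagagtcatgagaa
Il4: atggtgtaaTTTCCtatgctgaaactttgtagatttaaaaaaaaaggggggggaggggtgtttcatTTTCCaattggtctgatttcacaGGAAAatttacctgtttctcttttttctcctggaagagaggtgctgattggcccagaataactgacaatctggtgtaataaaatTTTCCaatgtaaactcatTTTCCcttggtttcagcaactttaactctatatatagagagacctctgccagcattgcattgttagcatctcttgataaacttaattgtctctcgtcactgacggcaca
Il13: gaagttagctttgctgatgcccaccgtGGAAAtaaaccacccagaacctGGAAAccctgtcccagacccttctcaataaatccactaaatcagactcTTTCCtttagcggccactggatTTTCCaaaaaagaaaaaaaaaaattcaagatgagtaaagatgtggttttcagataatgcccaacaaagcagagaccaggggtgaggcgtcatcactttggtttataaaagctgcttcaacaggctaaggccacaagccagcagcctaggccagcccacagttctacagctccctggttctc
Ccl3: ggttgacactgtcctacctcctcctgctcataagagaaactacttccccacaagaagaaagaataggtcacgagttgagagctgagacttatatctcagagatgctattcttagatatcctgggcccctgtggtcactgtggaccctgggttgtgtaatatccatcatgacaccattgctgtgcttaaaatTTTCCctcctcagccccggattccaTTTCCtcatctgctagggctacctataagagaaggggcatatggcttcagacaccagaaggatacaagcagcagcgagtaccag
S100a13: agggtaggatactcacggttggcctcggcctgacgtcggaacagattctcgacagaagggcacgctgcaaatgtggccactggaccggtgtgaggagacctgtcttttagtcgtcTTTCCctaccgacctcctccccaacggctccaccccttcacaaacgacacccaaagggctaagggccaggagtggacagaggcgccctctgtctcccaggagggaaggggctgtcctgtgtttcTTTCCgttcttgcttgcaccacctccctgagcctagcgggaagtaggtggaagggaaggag
The Il4 window held 5 matches and the Il13 window 4, against 2 in each of the windows of Il5, Ccl3 and S100a13. Among all 32851 windows of this length, 0.728% held at least 5 matches, 2.65% at least 4 and 26.7% at least 2. None of the 5 windows held TGANTCA, the AP-1 motif, which 7.81% of all windows held on either strand. The S100a13 window shares 204 bases with that of S100a1, which starts on the opposite strand. Of the genes called at 12 h, 44 of 58 raised and 20 of 28 lowered had a window in the table. At least 1 GGAAA was found for 35 of the 44 raised genes and 17 of the 20 lowered genes, against 64.4% of the 27025 genes with a window. TGANTCA was found for 6 of the 44 raised genes (13.6%) and 2 of the 20 lowered genes, against 8.97% of all genes with a window.

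At 12 h, 101 of 7587 probe sets were called (1.33%). Of these, 69 were higher in NmU-treated cells (0.909% of those tested) and 32 were lower (0.422%). The raised set held 58 named genes and the lowered set 28, with 8 and 3 probe sets left that have no single gene name. With 1 probe set per gene, as in the lists below, 84 of 5685 genes were called (1.48%). Of these genes 1.00% were raised and 0.475% lowered. The median log2 change was 0.69 over the raised probe sets and -0.64 over the lowered ones, against -0.02 over all probe sets tested. Large changes lay mostly on the raised side: 17 raised and 2 lowered probe sets differed by 2-fold or more, while 22 raised and 14 lowered ones differed by less than 1.5-fold. All 69 raised and 30 of 32 lowered probe sets had groups that did not overlap, which held for 7.83% of all probe sets tested; Adam3 and Pdia4 were the lowered exceptions.

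The count of lowered probe sets was less stable than that of raised ones. Scaling the arrays to a common median instead gave 63 raised and 14 lowered, so that raised probe sets made up 81.8% of calls and not 68.3%. Leaving out 1 array at a time gave 48 to 62 raised. The same step gave 17 lowered without PBS replicate 2, 18 without PBS replicate 3, 19 without NmU replicate 1 or 4 and 20 without NmU replicate 2, and up to 40 without PBS replicate 4.

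**Figure D1:**
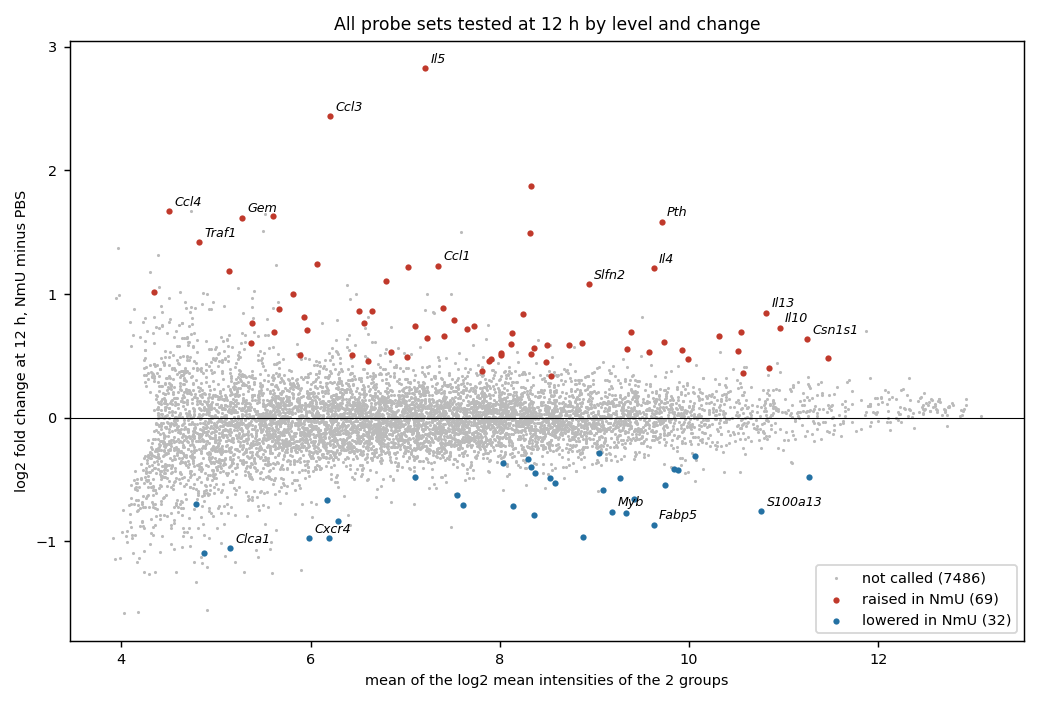
Log2 fold change at 12 h (NmU minus PBS, vertical axis) against the mean of the log2 mean intensities of both groups (horizontal axis) for each of the 7587 probe sets tested. The 69 raised probe sets reach a log2 change of 2.83 (Il5), while 2 of the 32 lowered ones changed by 2-fold or more.

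Of the 7 Th2 cytokines measured, 5 rose, and Il5 showed the largest change of all genes tested. Il5, the growth factor of eosinophils, had intensities of 401, 440, 417 and 308 in NmU-treated cells, against 51.0, 57.6, 74.6 and 40.7 in PBS-treated cells. The groups were far apart, and NmU replicate 4 was the lowest of its group. The log2 change was 2.83 ± 0.24 (SE, n = 4 each; adjusted p = 2.1e-08 in limma), or 7.10-fold.

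Il4, the cytokine that drives Th2 differentiation, read 1177, 1217, 1141 and 1265 in NmU-treated cells, against 519, 512, 493 and 557 in PBS-treated cells. The spread within each group was small beside the gap between them, and the log2 change was 1.21 ± 0.11 (SE; adjusted p = 3.5e-08). A second Il4 probe set gave 1.88 ± 0.19 (SE; adjusted p = 4.6e-07), and 2 further ones were not called, with log2 changes of 0.57 and 0.26, so the size of the Il4 difference depends on the probe set.

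Il13, which acts on airway epithelium, read 2417, 2697, 2102 and 2417 in NmU-treated cells, against 1093, 1261, 1520 and 1496 in PBS-treated cells. Its log2 change was 0.85 ± 0.14 (SE; adjusted p = 0.00058) without overlap of the groups. Il10, a cytokine that dampens inflammation, averaged 2560 ± 147 in NmU-treated cells and 1546 ± 109 in PBS-treated cells (SD, n = 4 each), a log2 change of 0.73. Il6, a cytokine of the acute phase response, averaged 1591 ± 81.7 in NmU-treated cells and 1016 ± 167 in PBS-treated cells, a log2 change of 0.66 (adjusted p = 0.0026), and its call was lost when only the 8 arrays at 12 h were fitted (adjusted p = 0.0627).

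The remaining Th2 cytokines did not pass the test. Il3, a growth factor of mast cells and basophils, read 306, 291, 313 and 383 in NmU-treated cells, against 102, 96.1, 141 and 120 in PBS-treated cells. Its groups did not overlap, but at a log2 difference of 1.503 ± 0.41 (SE) the adjusted p was 0.068. Il9, a mast cell growth factor, had a log2 difference of 1.03 ± 0.28 (SE; adjusted p = 0.065) with overlapping groups. Across the 7 genes the median log2 difference was 1.03, against -0.02 over all 5685 genes, of which 1.00% were raised. Il3 and Il9 were called under some of the alternatives, so the count ran from 5 to 7.

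**Figure D2:**
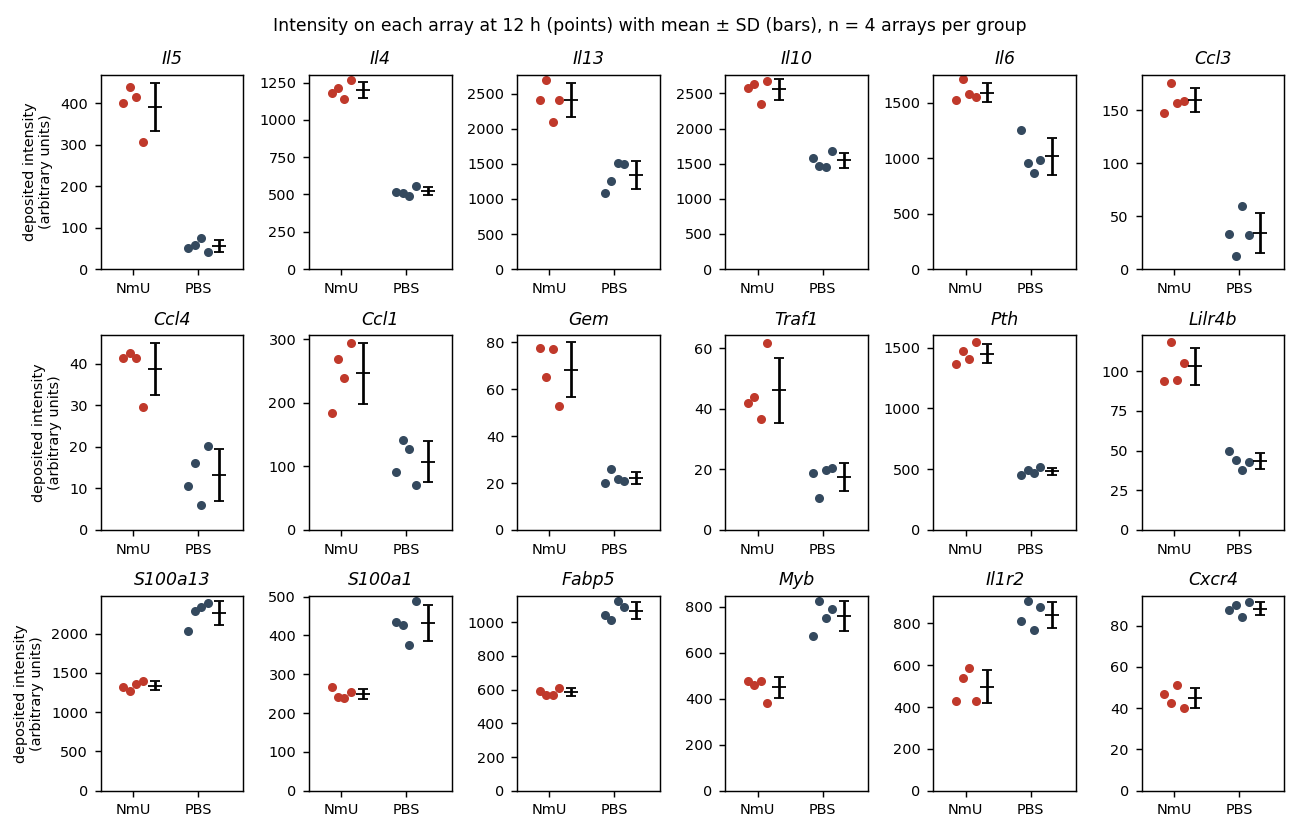
Intensity on each of the 8 arrays at 12 h for 18 named genes, with NmU-treated cells left and PBS-treated cells right in each panel; bars show the mean ± SD of 4 arrays. Il5 lies between 308 and 440 in NmU-treated cells and between 40.7 and 74.6 in PBS-treated cells, and none of the 18 genes has overlapping groups.

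Chemokines recruit leukocytes to tissue. Of 19 on the array 7 passed the filter, and 3 of the 7 rose, against 1.00% of all genes. Ccl3, which attracts monocytes and T cells, read 148, 175, 157 and 158 in NmU-treated cells, against 32.7, 12.1, 59.1 and 31.9 in PBS-treated cells. All 4 NmU arrays were high and close together, while the PBS arrays were low and scattered. The log2 change was 2.44 ± 0.29 (SE; adjusted p = 8.2e-06), or 5.42-fold. Its neighbour Ccl4, a related attractant, read 41.3, 42.6, 41.5 and 29.5 in NmU-treated cells, against 10.5, 16.2, 6.10 and 20.2 in PBS-treated cells. Ccl4 was dim on all arrays. Its mean of 13.25 in PBS-treated cells lay under the filter of 20.2, so it was tested only through NmU-treated cells, where it was high. Its log2 change was 1.67 ± 0.38 (SE, adjusted p = 0.020). That call was lost without any 1 of 5 arrays, PBS replicates 1 and 3 and NmU replicates 1, 2 and 3 (adjusted p up to 0.106). Ccl1, the ligand of the Th2 chemokine receptor Ccr8, averaged 246 ± 47.8 in NmU-treated cells and 107 ± 32.3 in PBS-treated cells (SD, n = 4 each; log2 change 1.23, adjusted p = 0.016). Its call was lost without PBS replicate 1 or 4 or NmU replicate 2 or 4 (adjusted p up to 0.069), and the list held 1 call without PBS replicate 1 or NmU replicate 2.

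The other chemokines were not called. Xcl1, the lymphotactin of T cells, and Ccl7, a monocyte attractant, had log2 differences of 1.67 ± 0.49 and 0.82 ± 0.35 (SE) with groups that did not overlap (adjusted p = 0.102 and 0.344). Ccl5, an attractant of T cells and eosinophils, differed by 0.73 (adjusted p = 0.262) and Ccl22 by 0.02 (adjusted p = 0.982). Among 7 chemokine receptors, Cxcr4 alone was called, and it fell, while 0.475% of all 5685 genes were lowered. Cxcr4, the receptor for Cxcl12, read 46.9, 42.5, 51.0 and 40 in NmU-treated cells, against 87.4, 90.1, 83.9 and 91.5 in PBS-treated cells. Each group was tight, but the log2 change of -0.97 ± 0.24 (SE; adjusted p = 0.038) lost its call without any 1 of the 8 arrays (adjusted p up to 0.109). Ccr1 differed by 0.52 and Ccr8 by -0.49, neither of them called.

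Outside these families, the hormone gene Pth had the smallest p of all probe sets. Pth, known for encoding parathyroid hormone, read 1366, 1476, 1410 and 1546 in NmU-treated cells, against 454, 494, 469 and 518 in PBS-treated cells. Every NmU array was high, and the log2 change was 1.58 ± 0.12 (SE; adjusted p = 2.6e-09), or 3.00-fold. The name comes from the platform's annotation, which can be old. Gem, a small GTPase induced by mitogens, averaged 68.2 ± 11.7 in NmU-treated cells and 22.1 ± 2.59 in PBS-treated cells, a log2 change of 1.62. Ak1, an adenylate kinase that balances adenine nucleotides, averaged 199 ± 9.47 in NmU-treated cells and 86.2 ± 10.1 in PBS-treated cells (SD, n = 4 each), a log2 change of 1.22 (adjusted p = 0.0059). Acpp, an acid phosphatase, rose by 1.00 on the log2 scale.

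Traf1, an adaptor of TNF receptors that is itself induced by NF-kB, read 41.9, 44.0, 36.7 and 61.7 in NmU-treated cells, against 18.8, 10.7, 19.9 and 20.4 in PBS-treated cells. The groups did not overlap, and the log2 change was 1.42 ± 0.24 (SE; adjusted p = 0.00095). Traf1 was dim. Its mean of 17.45 in PBS-treated cells lay under the filter of 20.2. It was therefore tested only through NmU-treated cells, where it was high. Traf1 was the only call among 12 TRAF and IAP genes, while 1.48% of all 5685 genes were called in either direction. Of 14 genes of the TNF and TNF receptor superfamily none was called; Tnf itself had a log2 difference of 0.55 ± 0.22 (SE; adjusted p = 0.302). Nfkbia, the inhibitor that NF-kB induces to shut itself off, rose by 0.56 (adjusted p = 0.030), the only call of 9 NF-kB genes, and lost it without any 1 of 7 arrays, all but PBS replicate 4 (adjusted p up to 0.097).

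Of 7 inhibitory receptors on the array 5 passed the filter, and 2 of the 5 rose, against 1.00% of all genes. Lilr4b, an inhibitory receptor of the Ig superfamily, read 93.8, 119, 94.7 and 105 in NmU-treated cells, against 49.8, 44.2, 37.6 and 43.0 in PBS-treated cells. NmU arrays were all well above PBS arrays, a log2 change of 1.24 ± 0.14 (SE; adjusted p = 3.4e-06). Lag3, which binds MHC class II and restrains T cells, averaged 1175 ± 65.1 in NmU-treated cells and 803 ± 40.01 in PBS-treated cells, a log2 change of 0.55. Ctla4 and Klrg1 had differences of 0.32 and 0.53 that were not called. A T cell receptor variable segment, Trbv13-2, rose by 0.86 and another, Trbv1, by 0.79 (adjusted p = 0.0015 and 1.7e-05). Receptor segments, Lilr4b and Slfn2 have close relatives, and their probes may read several of them. Of 14 genes of the receptor complex and its kinases, Ptpn6, the phosphatase SHP-1, was the only call, at 0.53 (adjusted p = 0.044), and it was lost without any 1 of the 8 arrays (adjusted p up to 0.180).

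In the nucleus and cytoplasm, Myc, a driver of growth, read 378, 430, 436 and 382 in NmU-treated cells, against 210, 242, 249 and 208 in PBS-treated cells. The groups were well separated, with a log2 change of 0.84 ± 0.16 (SE; adjusted p = 0.0028). Of 23 genes of ribosome biogenesis and Myc, Myc was the only call, and the list's median was 0.12. Myc and Gem were the calls among 21 immediate early genes, whose median was 0.06, while 1.00% of all 5685 genes were raised. Junb, Fosl1 and Egr2 had uncalled differences of 0.38, 0.48 and 0.46. Rgs10, which speeds the switching off of G proteins, rose by 0.86, Btg1, an antiproliferative gene, by 0.60, and Slfn2, which keeps T cells quiescent, by 1.08 in one probe set and 1.495 in another. Srgn, the proteoglycan core of secretory granules, averaged 1897 ± 122 in NmU-treated cells and 1179 ± 111 in PBS-treated cells (SD, n = 4 each), a log2 change of 0.69. The casein genes Csn3 and Csn1s1, better known from milk, rose by 0.89 and 0.63.

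The lowered genes called in each alternative fit included Fabp5, S100a1, Il1r2, Myb, S100a13 and Pole4. Fabp5, a fatty acid binding protein, read 593, 565, 569 and 613 in NmU-treated cells, against 1042, 1012, 1126 and 1089 in PBS-treated cells. Neither group varied much, and the log2 change was -0.87 ± 0.13 (SE; adjusted p = 0.00017), or 1.82-fold lower in NmU-treated cells. Abcb1a, a multidrug efflux pump, averaged 58.2 ± 4.93 in NmU-treated cells and 105 ± 16.4 in PBS-treated cells, a log2 change of -0.84 (adjusted p = 0.028) that lost its call without any 1 of 6 arrays, PBS replicates 1 and 4 and all NmU replicates (adjusted p up to 0.105). With Acsl4, an acyl-CoA synthetase that rose by 0.74, these were the calls among 24 genes of fatty acid and lipid handling, whose median was 0.01. Over all 5685 genes, 1.48% were called in either direction.

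S100 proteins are small calcium sensors. S100a13, which takes part in the export of FGF1, read 1317, 1276, 1358 and 1401 in NmU-treated cells, against 2037, 2286, 2333 and 2390 in PBS-treated cells. The log2 change was -0.76 ± 0.08 (SE; adjusted p = 5.4e-07). Another S100a13 probe set gave -0.97, and 2 more gave -0.23 and -0.11 and were not called. S100a1, whose start overlaps that of S100a13 in the window shown above, averaged 250 ± 13.4 in NmU-treated cells and 431 ± 46.1 in PBS-treated cells, a log2 change of -0.78 (adjusted p = 0.00070). These were the calls among 11 S100 and annexin genes, while 0.475% of all 5685 genes were lowered. Of the 11 genes, 8 had positive differences, against 2650 of all 5685 genes. Anxa1 and Anxa5 stood at 0.58 and 0.49, uncalled.

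Il1r2, the decoy receptor for interleukin-1, read 429, 541, 587 and 431 in NmU-treated cells, against 813, 905, 767 and 876 in PBS-treated cells. No NmU array reached the PBS arrays, and the log2 change was -0.77 ± 0.11 (SE, adjusted p = 6.9e-05 in limma). No other of 15 interleukin receptor chains was called, while 1.48% of all 5685 genes were called in either direction. Myb, a transcription factor of immature lymphocytes, read 477, 459, 477 and 382 in NmU-treated cells, against 674, 823, 749 and 789 in PBS-treated cells. That is a log2 change of -0.76 ± 0.12 (SE; adjusted p = 0.00057), the only call among 15 lymphoid transcription factors. Pole4, a subunit of DNA polymerase epsilon, fell by 0.49 on the log2 scale, which at 1.40-fold falls below a 1.5-fold minimum. Clca1, at 24.7 ± 7.19 in NmU-treated cells and 50.9 ± 14.3 in PBS-treated cells (SD, n = 4 each), had the largest drop among the named genes that were called, -1.05 (adjusted p = 0.030), but was dim and lost its call without PBS replicate 2 or 4 or NmU replicate 1 or 3 (adjusted p up to 0.157).

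Several programmes showed no called member, while 1.48% of all 5685 genes were called in either direction. At that share a list of 24 genes would often hold no call. Positive differences were seen for 2650 of all 5685 genes. In mitosis and G2/M, 0 of 24 genes were called, 5 of 24 had a positive difference, and the median was -0.21. Plk1, a mitotic kinase, and Cks2, a CDK partner, stood at -0.37 and -0.32 (adjusted p = 0.068 and 0.087). In DNA replication and G1/S, 0 of 24 were called and the median was -0.19, with Cdc6, a loader of the replicative helicase, at -0.33. Groups did not overlap for 11 of the 24 mitosis genes and 7 of the 24 replication genes, against 474 of all 5685 genes. In cholesterol synthesis and uptake 13 of 14 differences were positive with a median of 0.28. Only Fdps, which makes farnesyl diphosphate, was called there (0.54, adjusted p = 0.049). That call was lost without any 1 of the 8 arrays (adjusted p up to 0.180). A second, dimmer Fdps probe set rose by 0.61 (adjusted p = 0.0023 in limma) without overlap of the groups. No call was made among 11 Th2 lineage factors, 7 NFAT and calcineurin genes and 8 feedback inhibitors. Over all 7587 probe sets, 875 had an unadjusted p under 0.05.

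**Figure D3:**
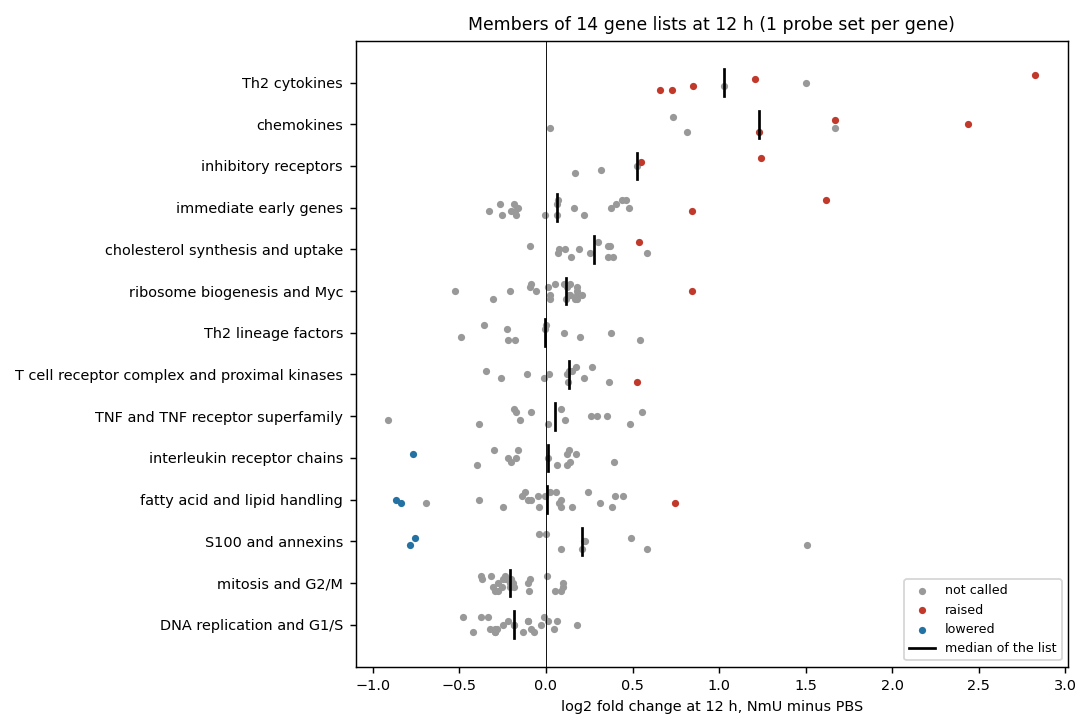
Log2 fold change at 12 h (NmU minus PBS, horizontal axis) of each measured member of 14 gene lists, with 1 probe set per gene; vertical bars mark list medians. Th2 cytokines (median 1.03) and chemokines (median 1.23) lie to the right, and mitosis and G2/M (median -0.21) lies left of 0 with no called member. Among the chemokines, Ccl4 passed the filter only through NmU-treated cells.

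Nmur1, the receptor for NmU, read 148, 132, 151 and 98.4 in NmU-treated cells, against 212, 209, 205 and 153 in PBS-treated cells. Its groups did not overlap, but the log2 difference of -0.57 ± 0.25 (SE) was not called (adjusted p = 0.361). Of 9 T cell markers on the array, 7 were tested, Cd3d, Cd28 and Cd4 among them, and Cd2 and Thy1 lay below the filter. None of the 7 was called, and their differences ran from -0.26 to 0.36, with 5 positive, against 2650 of all 5685 genes. The summed T cell markers ranged from 4849 to 5800 in NmU-treated cells and from 4150 to 5396 in PBS-treated cells. Of 7 B cell markers, 4 lay below the filter, Cd79b, Cd22 and Pax5 among them, while Cd79a, Ms4a1 and Ighm passed it; the list's sum ran from 136 to 236 in NmU-treated cells and from 145 to 269 in PBS-treated cells. Of 16 granulocyte and mast cell markers, 12 lay below it, Fcer1a and Kit among them, while Tpsb2, Mpo, Elane and Camp passed, with sums of 174 to 248 in NmU-treated cells and 196 to 356 in PBS-treated cells. Of 8 NK and CD8 T cell markers, 7 lay below it, Cd8a and Cd8b1 among them. Cd68, of macrophages, was the only call among those lists, at 0.61 (adjusted p = 0.042), and was lost without PBS replicate 2 or 4 or any NmU replicate (adjusted p up to 0.205). Of 17 macrophage and dendritic markers, 9 passed the filter and 8 lay below it. The sum of all 17 ran from 2012 to 2217 in NmU-treated cells and from 1986 to 2543 in PBS-treated cells. Of 6 erythroid markers, 5 passed, with sums of 291 to 320 in NmU-treated cells and 274.5 to 351 in PBS-treated cells. Of 12 fibroblast and endothelial markers, 4 passed, with sums of 472 to 638.5 in NmU-treated cells and 408 to 797 in PBS-treated cells. No erythroid, fibroblast or endothelial marker was called, while 1.48% of all 5685 genes were called in either direction. Correlations between arrays were 0.969 to 0.983 among NmU arrays, 0.960 to 0.972 among PBS arrays and 0.955 to 0.977 between the groups. In such bulk samples, fewer cells of a type and less RNA per cell cannot be told apart.

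Most of the 12 h calls had been made before in the same direction. Of the 69 raised probe sets, 9 were also raised at 0.8 h (0.833% of all probe sets tested then), 33 at 3 h (4.79%) and 47 at 6 h (3.13%), and 15 were called at no earlier time in the same direction. Of the 32 lowered ones, 0 were lowered at 0.8 h (0.0661% of all then), 13 at 3 h (6.12%) and 19 at 6 h (2.20%), and 10 at no earlier time. Each time has its own PBS arrays. In both directions together, the calls came to 0.899% at 0.8 h, 10.9% at 3 h and 5.34% at 6 h. Gadd45b, a stress gene, was raised at 12 h, by 0.51; it had been lowered at 0.8 h (-0.69) and raised at 3 h (0.66). Dusp19, a phosphatase, was raised at 12 h, by 0.38, and had been lowered at 3 h (-0.38).

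Read forward, 47 of the 231 probe sets raised at 6 h and tested at 12 h were still raised (20.3%), which made up 68.1% of the 12 h list. Their median log2 change was 0.63 at 6 h and 0.30 at 12 h. Of 165 lowered at 6 h, 19 were still lowered (11.5%, or 59.4% of the 12 h list), with medians of -0.49 and -0.21. Of all 7587 probe sets tested at 12 h, 0.909% were raised and 0.422% lowered. The sign was kept by 203 of the 231 and 149 of the 165, while 3499 of the 7587 had a positive change at 12 h. The 231 and 165 probe sets were picked by their p at 6 h, so the 2 medians are not alike in how they were reached. Among genes raised at 6 h and uncalled at 12 h, Msmo1, a sterol enzyme, had log2 changes of 1.28 at 6 h and 0.36 at 12 h. Egr2, an early zinc finger factor, had 1.63 and 0.46, but its 6 h arrays were far apart, at 635 ± 714 in NmU-treated cells and 141 ± 5.53 in PBS-treated cells (SD, n = 4 each).

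Over time, genes took different courses. Mean Il5 in NmU-treated cells was 68.8, 226, 302 and 391 at 0.8, 3, 6 and 12 h, against 63.8, 60.3, 52.0 and 56.0 in PBS-treated cells. Mean Il4 in NmU-treated cells was 1870, 3284, 2076 and 1200 at these times, against 529, 505, 560 and 520 in PBS-treated cells. So Il4 was highest at 3 h and Il5 at 12 h. Fabp5 in NmU-treated cells was 1020, 885, 678 and 585, against 1154, 1097, 1142 and 1067 in PBS-treated cells. Myb in NmU-treated cells was lowest at 3 h, at 240, and stood at 441 and 449 at 6 and 12 h.

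**Figure D4:**
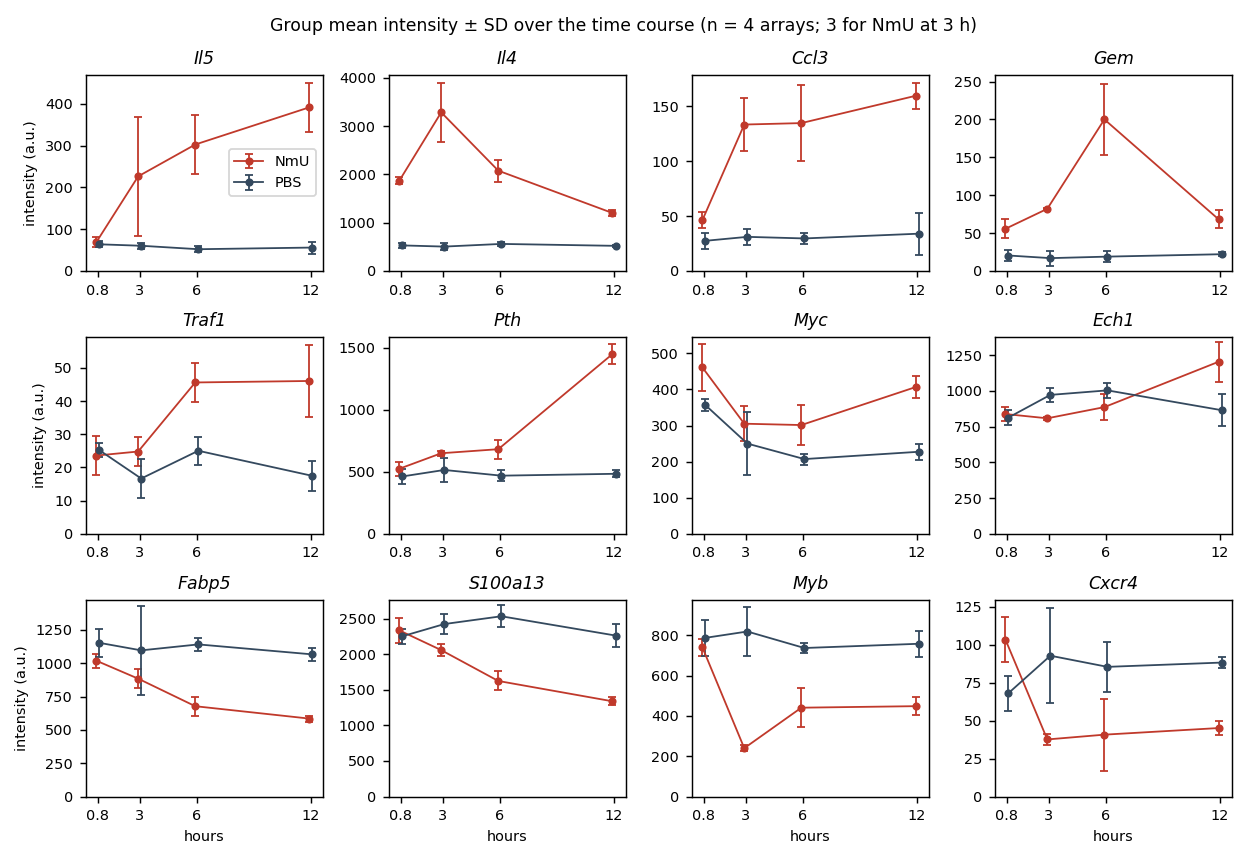
Mean intensity ± SD of 12 genes in NmU-treated and PBS-treated cells at 0.8, 3, 6 and 12 h (4 arrays per point, 3 for NmU at 3 h). Il5 and Pth are highest at 12 h in NmU-treated cells, Il4 at 3 h and Gem at 6 h, while Fabp5 and S100a13 are lowest at 12 h.

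The effect at 12 h was tested against that at 6 h directly, as a difference of log2 changes, and 8 of 7754 probe sets were called (0.103%; 0.0516% higher and 0.0516% lower at 12 h), while 636 had an unadjusted p under 0.05. The effect was higher at 12 h for Pth, by 1.04 ± 0.17 (SE; adjusted p = 0.0051). Pth averaged 1449 ± 78.6 in NmU-treated cells and 484 ± 28.1 in PBS-treated cells at 12 h, and 682 ± 77.1 in NmU-treated cells and 468 ± 42.9 in PBS-treated cells at 6 h (SD, n = 4 each). It was also higher for Ddit4, an mTORC1 inhibitor (1.03), Ech1, an enzyme of fatty acid oxidation (0.66), and Pcbd2 (0.56). Ddit4 was lowered at 6 h, at a log2 change of -1.11, and stood at -0.08 at 12 h, uncalled. Ech1 was not called at 6 h (-0.18) and rose at 12 h (0.48).

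On the other side, the effect was lower at 12 h for Gch1, the first enzyme of tetrahydrobiopterin synthesis, by -0.80 ± 0.13 (SE; adjusted p = 0.0059). Gch1 averaged 70.6 ± 3.74 in NmU-treated cells and 49.6 ± 1.79 in PBS-treated cells at 12 h, and 122 ± 9.25 in NmU-treated cells and 49.4 ± 3.54 in PBS-treated cells at 6 h. Cln8, the calcium channel gene Ryr3 and a probe set without a gene name had differences of -1.49, -1.18 and -1.10. The log2 change went from 0.94 at 6 h to -0.55 at 12 h for Cln8 and from 0.59 to -0.60 for Ryr3, neither called at 12 h. From 6 to 12 h, mean Cln8 went from 79.4 to 48.8 in NmU-treated cells and from 41.7 to 70.75 in PBS-treated cells. Mean Ryr3, which was dim, went from 39.7 to 22.6 in NmU-treated cells and from 26.3 to 34.8 in PBS-treated cells. For most genes the difference between the times was not called, Il5 (0.31) included. Leaving out 1 array of either time gave 2 to 4 higher and 2 to 5 lower probe sets, and a common median 2 and 0.

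**Figure D5:**
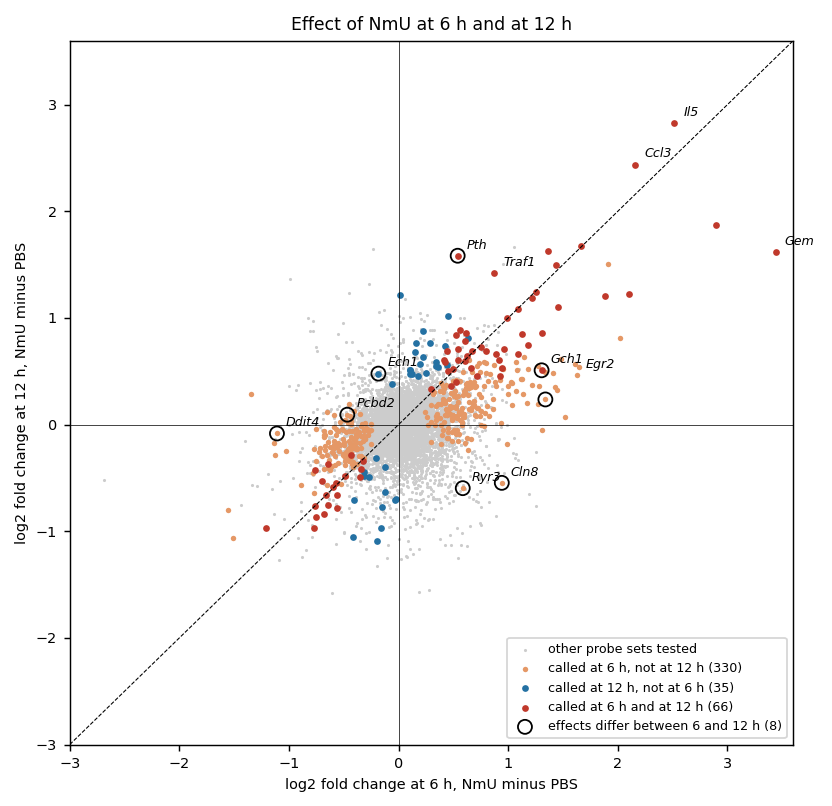
Log2 fold change (NmU minus PBS) at 6 h (horizontal axis) and at 12 h (vertical axis) of each probe set tested at 12 h; the dashed line marks equal effects. Of these, 66 were called at both times, 35 at 12 h and not at 6 h, and 330 at 6 h and not at 12 h; circles mark the 8 whose effects differed.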

How the data were processed

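Total RNA of D10.G4.1 cells was hybridised to 31 one-colour oligonucleotide arrays. The authors deposited 1 linear intensity per probe set, and how it was computed is not given in the sources used here; the arrays share a 2% trimmed mean of 149.96 to 149.97, so no further scaling was applied. Intensities were floored at 5.8 (the 20th percentile of all values), filtered at 20.2 (the 40th percentile) and log2-transformed, and 8 group means were fitted by lmFit, with moderation by eBayes (limma 3.58.1, R 4.3.3). The fit had 23 residual degrees of freedom, to which the prior added 2.92, and tests were two-sided. P-values at 12 h were adjusted by Benjamini-Hochberg over all 7587 probe sets. Those at 6, 3 and 0.8 h were adjusted over 7532, 7603 and 7560 probe sets. For the difference between 12 and 6 h, 7754 were used. The number of arrays limits the precision. Probe sets were named from the platform's annotation, updated through RefSeq: 10833 had 1 gene symbol, 396 several and 1193 none, and only the first were named. A gene with several probe sets is represented by the brightest.

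Genes named are those called at 12 h, all Th2 cytokines and chemokines measured, up to 4 members of each other list with the lowest p, genes called at 6 h with the largest changes, and those whose effect differed between times. The members and lists were chosen with earlier results of these data known. No pair of arrays was identical. Deviations of arrays with the same replicate number correlated at -0.24 to 0.15, so the numbers were not taken as pairs. The test was tried on simulated data. It recovered 38% of changes of 0.5 on the log2 scale, 84% of changes of 1 and 100% of changes of 2. Of 172 calls made there, 11 were false. Alternatives changed the arrays fitted, filter, floor, log transform, scaling, replicate block, array weights, call rule and probe set, and left out each array.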

Additional observations from a re-analysis of the deposited data

Results flagged for a closer look

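Of 320 groups of 4 arrays examined for 160 results, 18 held an array set apart from the other 3 by more than Dixon's critical value; chance gives about 1 in 20. In NmU-treated cells the arrays set apart were Fosl1 (39.1) and Furin (354) on replicate 1, Abcb1a (50.8) and Itpkb (275) low and Ctla4 (323) high on replicate 3, and Cyp51 (59.8), Ccl4 (29.5) and Serpinb9 (170) low on replicate 4. In PBS-treated cells, a probe set without a gene symbol (2463) was low on replicate 1, Traf1 (10.7) and Emp1 (188) were low and Serpinb9 (142) high on replicate 2, and Ddit4 (399) and Cmtm7 (972) were low on replicate 3. On PBS replicate 4, Nmur1 (153), Adam3 (60.1) and Lag3 (743) were low and the second S100a13 probe set (798) was high.

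The effect of NmU differed between 12 h and 6 h, by a test of the difference itself, for Pth (1.04), Ddit4 (1.03), Ech1 (0.66), Pcbd2 (0.56), Gch1 (-0.80), a probe set without a gene symbol (-1.10), Ryr3 (-1.18) and Cln8 (-1.49).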

How the results depend on the processing

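All 101 called results kept their direction in each alternative fit, and 40 kept their call in all of those, the 1.5-fold minimum aside; 53 were called in each fit with 1 array left out. Of 59 uncalled results, 17 gained a call somewhere. The raised count was 69, with 47 to 100 over all alternatives and 48 to 62 with 1 array left out. The lowered count of 32 became 15 with the 8 arrays alone (9 of them shared with the 32; of 47 raised there, 39 were shared with the 69), 14 with a common median, 57 with array weights, 18 with a 1.5-fold minimum, and 17 to 40 with 1 array left out. The effects above those at 6 h (4) became 2 with a common median and 2 to 4 with 1 array left out; those below (4) became 0, 12 with array weights and 2 to 5. With replicate number as a block, although the numbers did not pair the samples, 71 were raised (60 of them shared with the 69) and 29 lowered (21 shared), and 1 effect lay above and 1 below that at 6 h. Ccl22 (0.02) turned to -0.12 with array weights, -0.02 without PBS replicate 1, -0.18 without PBS replicate 4, -0.13 without NmU replicate 2 and -0.0056 without NmU replicate 4, and ranged from -0.185 to 0.176 with 1 array left out. The cause was not tested. Dim probe sets limit the comparison: 162 deposited values were 0, and no called probe set had an array at the floor.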

Other observations

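Several raised genes have no evident link to the lists above. Dap, a gene of cell death pathways, averaged 356 ± 27.9 in NmU-treated cells and 221 ± 7.46 in PBS-treated cells (SD, n = 4 each), with log2 changes of 0.15 at 6 h, uncalled, and 0.68 at 12 h. Pdzk1ip1, a small membrane protein, averaged 123 ± 13.9 in NmU-treated cells and 72.6 ± 7.48 in PBS-treated cells, and Cdk5, a kinase best known from neurons, 400.3 ± 7.08 in NmU-treated cells and 270.3 ± 9.80 in PBS-treated cells. Both were called in each alternative fit and at no earlier time, but Cdk5, at 1.48-fold, falls below a 1.5-fold minimum. A probe set that has no gene symbol in the annotation used averaged 85.6 ± 8.01 in NmU-treated cells and 27.8 ± 4.55 in PBS-treated cells, a log2 change of 1.63.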
